A study of Mus musculus with 5 samples.

Results

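The 10 genes described here carry peptides to the cell surface on MHC class I molecules: H2-K1, H2-D1, B2m, Tap1, Tap2, Tapbp, Nlrc5, Psmb8, Psmb9 and Psmb10. They were chosen by gene symbol, with earlier results of these data known, and all 10 were found among the 31053 genes counted. Single cells of mouse heart were sequenced in 5 libraries, made from nucleated living cells sorted out of pooled hearts that had been minced and digested with enzymes. The control group, 4 mice in 2 libraries (control 1 and control 2), had the genotype Ctla4+/+Pdcd1-/-. The disease group, 10 mice in 3 libraries (disease 3, disease 4 and disease 5), had the genotype Ctla4+/-Pdcd1-/-, which stands for the myocarditis seen under checkpoint inhibitor therapy. By the text on the series both groups lack Pdcd1, the gene of the inhibitory receptor PD-1, and the disease group also lacks 1 copy of Ctla4, the gene of another inhibitory receptor of T cells. The genotype labels of control 2, disease 4 and disease 5 name Pdcd2 or Pdcd3 in the place of Pdcd1, whereas the text on the whole series gives Pdcd1-/- for both groups. Strain, age, MHC haplotype and the mice behind each library are not given in the sources used here. Libraries were the replicates, so a p-value measures the spread between pooled libraries.

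Nearly all nucleated cells show fragments of their own proteins on class I molecules, where CD8 T cells can read them. The proteasome cuts proteins into peptides, and under interferon gamma its catalytic subunits are exchanged for the immunoproteasome subunits Psmb8, Psmb9 and Psmb10. The transporter formed by Tap1 and Tap2 moves peptides into the endoplasmic reticulum. There tapasin, the product of Tapbp, helps to load them on a heavy chain (H2-K1 or H2-D1) paired with the light chain B2m. Nlrc5 is a transactivator of most of these genes and acts through a conserved module in class I promoters. In inflamed heart tissue, class I molecules are known to increase on endothelial cells and cardiomyocytes.

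Of the 10 genes, 7 lie in the MHC region of chromosome 17 (GRCm38, GENCODE annotation): H2-K1 at 33996017 to 34000347, Tapbp at 33915899 to 33929292, Psmb9 at 34181987 to 34187764, Tap1 at 34187553 to 34197225, Psmb8 at 34197721 to 34201454, Tap2 at 34203527 to 34216321 and H2-D1 at 35262730 to 35267499. B2m lies on chromosome 2 at 122147686 to 122153083, Nlrc5 on chromosome 8 at 94434356 to 94527272 and Psmb10 on chromosome 8 at 105935735 to 105938444. Promoter windows from RefSeq (GRCm38.p6), with 300 bases from 250 before to 50 after the annotated start, matched 8 of the 10 genes, all but Tap2 and Nlrc5. Motif positions count from the RefSeq starts, which differ from the GENCODE bounds above, so that the stretches printed for H2-D1 and Psmb8 lie inside those bounds. The 180 bases before the RefSeq start are printed for both heavy chains and B2m, because they share a motif pair, and for Psmb8, because its counts did not run with those of the other immunoproteasome subunits. Capitals mark the letters of the motifs searched, on both strands: TGACG (a CREB/ATF half-site), CCAAT (the NF-Y site or Y box, which reads ATTGG on the other strand), GGGGA followed at once by TTCCC or ATCCC (NF-kappaB sites), GAAA followed after any 2 bases by GAAA (an interferon response element), and TTC followed after any 3 bases by GAA (a GAS element). In both heavy chains the NF-kappaB letters of 1 strand overlap those of the other, so 11 letters are in capitals.
H2-K1, chr17:34000348-34000527, minus strand: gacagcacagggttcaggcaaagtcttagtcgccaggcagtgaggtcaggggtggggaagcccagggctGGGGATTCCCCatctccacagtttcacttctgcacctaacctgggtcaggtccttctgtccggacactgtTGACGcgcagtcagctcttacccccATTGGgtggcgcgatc
H2-D1, chr17:35262914-35263093, plus strand: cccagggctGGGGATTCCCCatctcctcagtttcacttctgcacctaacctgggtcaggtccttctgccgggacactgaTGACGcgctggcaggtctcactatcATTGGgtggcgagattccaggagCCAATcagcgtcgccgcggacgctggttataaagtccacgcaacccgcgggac
B2m, chr2:122147507-122147686, plus strand: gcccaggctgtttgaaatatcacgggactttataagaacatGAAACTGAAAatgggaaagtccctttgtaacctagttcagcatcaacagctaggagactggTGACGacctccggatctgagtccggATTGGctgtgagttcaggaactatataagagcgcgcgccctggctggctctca
Psmb8, chr17:34198015-34198194, plus strand: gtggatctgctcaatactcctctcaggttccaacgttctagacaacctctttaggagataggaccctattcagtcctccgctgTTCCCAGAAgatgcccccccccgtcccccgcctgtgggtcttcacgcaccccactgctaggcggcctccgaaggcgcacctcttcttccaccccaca

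H2-K1, H2-D1 and B2m each hold TGACG followed by ATTGG, the second motif starting 25 bases after the start of the first. This pair in this spacing occurred in 31 of 32851 mouse promoter windows (0.0944%), belonging to 27 genes. The spacing counted is the one these genes hold, and the 27 include H2-K1, H2-D1 and B2m themselves. The share is thus a description and no test. Of the other class I heavy chain genes looked at, H2-M3 was also among those 27, and no other member with a window was. The pair starts 41 bases before the RefSeq start in H2-K1 (55 before its other listed start), 101 in H2-D1 and 78 in B2m. The NF-kappaB letters occur in H2-K1 and H2-D1 but not in the B2m window, and were in 0.161% of all windows. From these letters to the end of the pair, 89 of 100 bases are identical between H2-K1 and H2-D1. The interferon response element letters were found in B2m alone among the 8 windows (3.44% of all windows), and the GAS letters in Psmb8 alone (8.30% of all windows). A match of letters is a description and not a measured binding site. The plot of motif positions shows the 8 windows side by side.

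**Figure D1:**
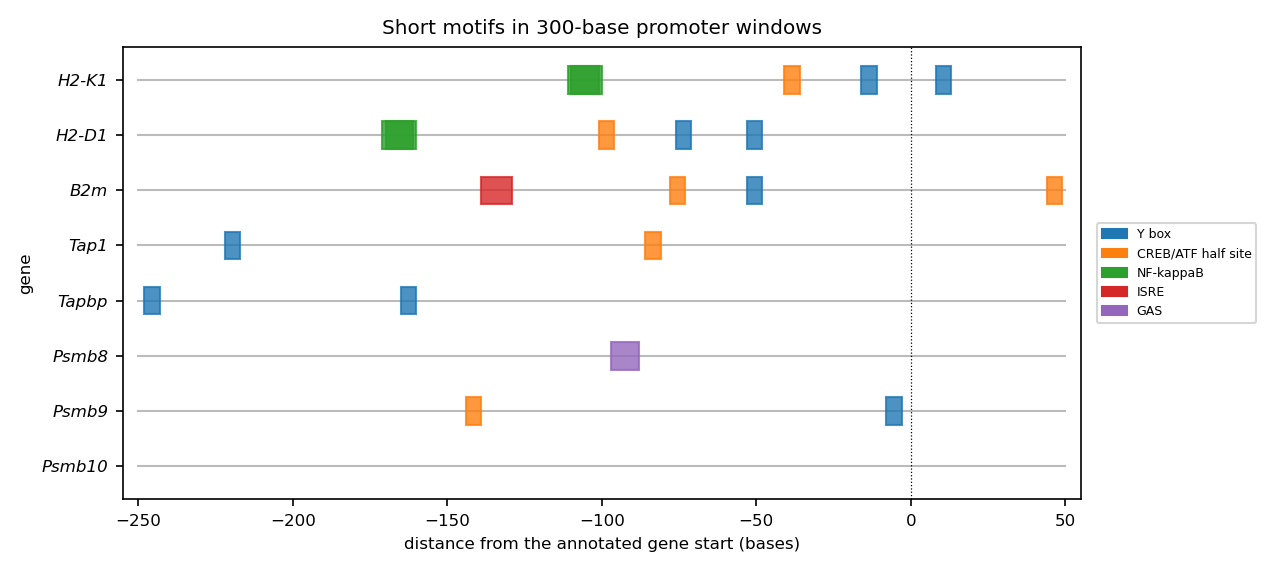
Positions of the searched motifs (coloured boxes) in the promoter windows of 8 class I genes, with the distance from the annotated gene start in bases on the x axis and 1 gene per row. In H2-K1, H2-D1 and B2m a CREB/ATF half-site starts 25 bases before the start of a Y box (the NF-Y site). Psmb10 holds none of the motifs.

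The 5 libraries held 47319 cell barcodes, of which 38312 passed the filters on depth and mitochondrial share, and their median depth was 3368 to 4668 UMIs per cell. The filters removed 12.4% to 32.5% of barcodes per library, the most in disease 3. Pairs of libraries shared 86 to 161 barcodes (1.33% to 1.90% of the smaller library). Cells were assigned to a lineage by their marker UMIs, and 35310 cells fell into 6 lineages with at least 50 cells in every library: endothelial-like, fibroblast-like, mural-like, monocyte/macrophage-like, T cell-like and B cell-like. No member of the class I set is among the markers. In these lineages each library's summed level of the lineage's own markers was at least 5.10 times that of any other fitted lineage's list. There were 558 and 84 T cell-like cells in control 1 and 2, and 120, 2288 and 578 in disease 3, 4 and 5, so sums over all cells mix lineages in different shares. Erythroid markers, which no gated cell type should hold, summed to 467 to 1879 CPM (UMIs of a gene on the counts-per-million scale of its library) and cardiomyocyte markers to 137 to 434 CPM over the libraries. In endothelial-like cells the erythroid sum was 1636 and 3362 CPM among controls and 4972, 6184 and 2111 among disease libraries, beside 8770 to 9678 for the lineage's own markers. In mural-like cells it was 4.93 and 16.3 against 531, 22.3 and 334 CPM, so the disease libraries lay above both controls there. The part of these markers in the class I results was not tested. In T cell-like cells Pdcd1 reached 569 and 71.2 CPM among controls and 263, 1059 and 822 in disease libraries, and Ctla4 reached 422 and 71.2 against 147, 648 and 547. The deleted stretch of either gene is not stated in the labels, so these counts do not check the genotypes. Pdcd2, which the labels of control 2 and disease 4 name as deleted, was at 11.9 and 22.2 CPM over all cells of control 1 and 2 and at 3.33, 3.06 and 3.32 in disease 3, 4 and 5, thus highest in control 2.

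H2-D1 was lower in every disease library than in either control library in all 6 lineages. Among all genes tested, such a gap was found for 26.5% in endothelial-like, 26.4% in fibroblast-like, 21.8% in mural-like, 19.9% in T cell-like, 21.2% in monocyte/macrophage-like and 22.8% in B cell-like cells. The share of genes with such a gap in all 6 lineages at once was not counted. Nor was it counted for genes highest or lowest in disease 4 in all 6, as given below. In endothelial-like cells H2-D1 stood at 4353 and 3501 CPM in control 1 and 2, and at 686, 948 and 707 in disease 3, 4 and 5. Here and below, levels within a lineage are CPM of that lineage's library, scaled with TMM factors. The difference was a log2 fold change of -2.33 ± 0.19 (SE; edgeR quasi-likelihood test, adjusted p = 0.00118). In this lineage 11.7% of the 12738 genes tested were called lower and 0.361% higher, at an adjusted p under 0.05, so falls were common among all genes. B cell-like cells had the largest H2-D1 difference of the 6 lineages, with 2664 and 2408 CPM among controls and 292, 317 and 346 among disease libraries. This was a log2 fold change of -2.99 ± 0.15 (SE, edgeR's adjusted p = 0.000324, beside 8.49% of genes called lower).

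T cell-like cells held H2-D1 at 3802 and 2557 CPM among controls and at 515, 483 and 471 among disease libraries, which lay close together. The log2 fold change was -2.70 ± 0.29 (SE, edgeR's adjusted p = 0.00678, beside 5.02% of genes called lower). In monocyte/macrophage-like cells the levels were 4093 and 2650 against 713, 1073 and 731 CPM (log2 fold change -2.01 ± 0.29, SE, edgeR's adjusted p = 0.0108, 6.59% of genes called lower). Both groups lay apart here as well, with disease 4 the highest of the disease libraries. In mural-like cells, the pericytes and smooth muscle cells of vessel walls, H2-D1 was at 1935 and 1393 against 331, 515 and 354 CPM. That difference was -2.07 ± 0.22 on the log2 scale (SE, edgeR's adjusted p = 0.000471, 7.91% of genes called lower).

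Of 72 summed marker lists of other cell types in these 6 lineages, 14 had groups that did not overlap, 12 of them higher in disease. In mural-like cells endothelial markers summed to 3177 and 2867 CPM among controls and to 3625, 3675 and 3694 among disease libraries, whereas cardiomyocyte markers were at 609 and 387 against 270, 362 and 167. Dendritic cell markers there were also higher in disease, with 5 or 6 of 7 at 0 in each library. Monocyte/macrophage-like cells held neutrophil markers at 61.3 and 45.7 against 101, 188 and 103 CPM and dendritic cell markers at 23.5 and 19.0 against 31.2, 91.7 and 78.3. NK cell markers were higher in disease in T cell-like (33.8 and 26.4 against 42.8, 61.4 and 52.8 CPM), endothelial-like and B cell-like cells, endothelial markers also in B cell-like cells (124 and 126 against 159, 149 and 252 CPM), and B cell, mural and neutrophil markers in fibroblast-like cells. Dendritic cell markers were lower in disease among endothelial-like cells (59.1 and 71.3 against 40.1, 53.6 and 51.8 CPM). The part of these markers in the class I results was not tested.

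In fibroblast-like cells the libraries of each group were spread widely. Their H2-D1 level was 2093 and 1008 CPM in control 1 and 2, and 209, 870 and 449 in disease 3, 4 and 5. The groups did not overlap, but the log2 fold change of -1.61 ± 0.62 (SE) did not pass the test (edgeR's adjusted p = 0.174). It passed without disease 4 (-2.24, adjusted p = 0.0386). Over all cells H2-D1 was at 3152 and 2200 against 451, 896 and 562 CPM (-2.07 ± 0.36, SE, edgeR's adjusted p = 0.0339). In that comparison 6.4% of genes were called lower and 0.0309% higher. The calls in endothelial-like, mural-like and B cell-like cells held under all 13 alternatives tried. The call in monocyte/macrophage-like cells was lost without control 1 (edgeR's adjusted p = 0.0825) and without disease 5 (0.0940), and the call in T cell-like cells without disease 5 (0.109). The call over all cells was lost without control 1 (0.186), control 2 (0.144), disease 3 (0.0678) or disease 5 (0.187).

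H2-K1, the other classical heavy chain of these libraries, was also lower in disease, by less. In endothelial-like cells it was at 3439 and 2473 CPM among controls and at 1401, 908 and 797 among disease libraries. All disease libraries lay below both controls, and the log2 fold change was -1.51 ± 0.28 (SE, edgeR's adjusted p = 0.0220). This call was lost without control 1 (0.119), control 2 (0.0683) or disease 5 (0.0960), and once a trend with GC content was removed (0.0522). In mural-like cells H2-K1 was at 1562 and 1101 against 592, 532 and 292 CPM (-1.50 ± 0.27, SE, edgeR's adjusted p = 0.00805), a call lost without control 1 (0.127).

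In the other 4 lineages the H2-K1 difference did not pass the test. T cell-like cells showed 5013 and 3260 CPM among controls, 2737 in disease 3, and 756 and 989 in disease 4 and 5. Disease 3 thus lay nearer to control 2 than to the other disease libraries, and the log2 fold change of -1.47 ± 0.56 (SE) had an edgeR's adjusted p of 0.251. B cell-like cells had 2472 and 2266 against 1270, 409 and 484 CPM, with the same order of libraries (-1.72 ± 0.45, SE, edgeR's adjusted p = 0.0617). Without disease 3 both lineages passed, at -2.22 in T cell-like cells (adjusted p = 0.0402) and -2.38 in B cell-like cells (0.00371). With no filter on low counts both passed too, at -1.40 (adjusted p = 0.00783) and -1.69 (7.1e-16). Those fold changes were close to the filtered ones, but 17060 and 14017 genes entered the fits, against 9805 and 5277. The B cell-like difference also passed with DESeq2 (0.0162) and without TMM factors (0.0384). In monocyte/macrophage-like cells the groups were apart, at 2622 and 1527 against 1180, 1019 and 801 CPM (-1.05, adjusted p = 0.102), and the difference passed with DESeq2 (0.0411) and with no filter (0.0329). In fibroblast-like cells they overlapped, since disease 4 (894 CPM) lay above control 2 (654 CPM).

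**Figure D2:**
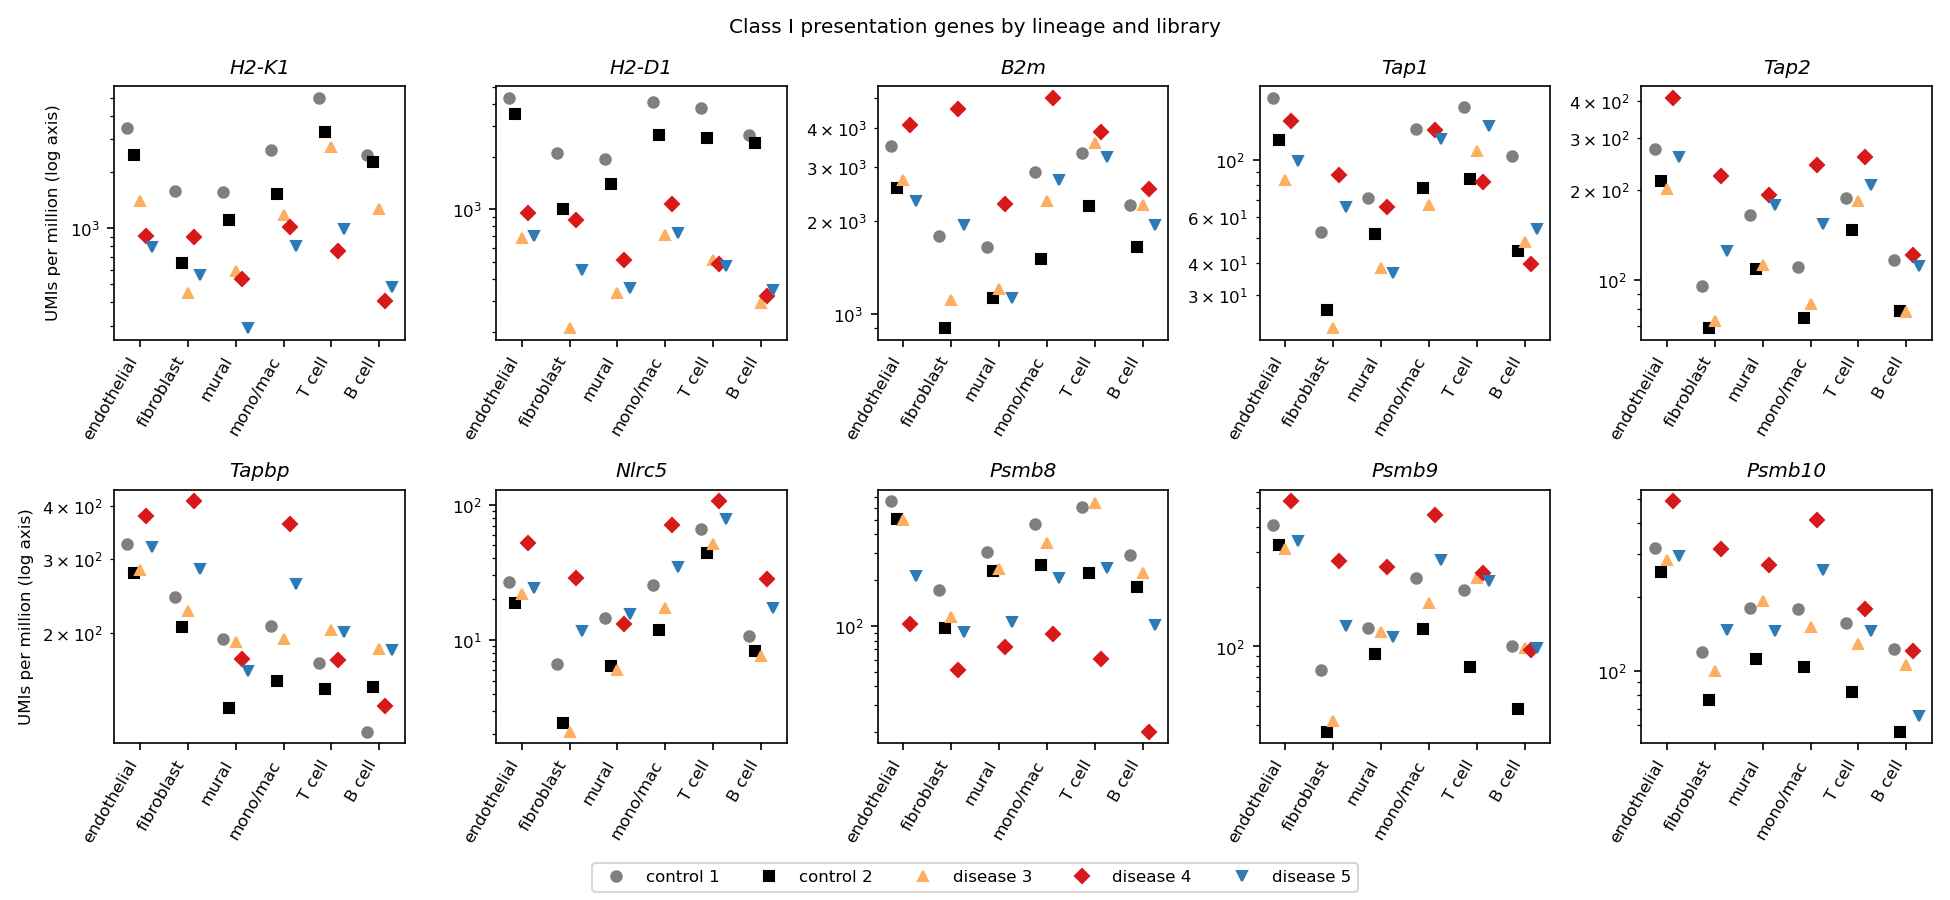
Level of each class I gene (y axis, CPM within the lineage, log axis) in 6 lineages (x axis), with 1 point per library. H2-D1 points of the disease libraries lie below those of both controls in every lineage, B2m is highest in disease 4 throughout, and Psmb8 is lowest in disease 4 throughout.

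B2m, the light chain that both heavy chains need to reach the surface, showed another order of libraries. It was highest in disease 4 in all 6 lineages, the groups overlapped in each of them, and no difference passed the test. In fibroblast-like cells B2m was at 1790 and 902 CPM among controls and at 1113, 4592 and 1942 in disease 3, 4 and 5 (log2 fold change 0.92 ± 0.66, SE, edgeR's adjusted p = 0.419). In endothelial-like cells it was at 3494 and 2553 against 2723, 4100 and 2329 CPM (0.01 ± 0.28, SE, edgeR's adjusted p = 0.982). Among all genes tested, disease 4 was the highest library for 28.7% in endothelial-like, 27.5% in fibroblast-like, 26.7% in mural-like, 20.3% in T cell-like, 30.0% in monocyte/macrophage-like and 22.1% in B cell-like cells.

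Since heavy and light chain counts come from the same cells of the same library, their ratio does not depend on library scaling. Over all cells there were 125 and 136 H2-D1 UMIs per 100 B2m UMIs among controls, and 24.1, 18.9 and 24.9 in disease 3, 4 and 5. The 3 disease libraries lay close together in this ratio although their B2m levels did not. Across the 6 lineages the H2-D1 ratio ranged from 112 to 175 in the control libraries and from 12.5 to 31.3 among disease libraries. H2-K1 stood at 99.3 and 95.3 UMIs per 100 B2m UMIs among controls and at 50.1, 20.3 and 30.7 among disease libraries. Its order of disease libraries was alike in every lineage, with disease 3 highest (40.2 to 76.3) and disease 4 lowest (16.1 to 23.4). An exact two-sided permutation test over the 5 libraries gave p = 0.1 for both ratios, the smallest value that 2 against 3 libraries allow (adjusted p = 0.2 over 28 ratio tests).

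**Figure D3:**
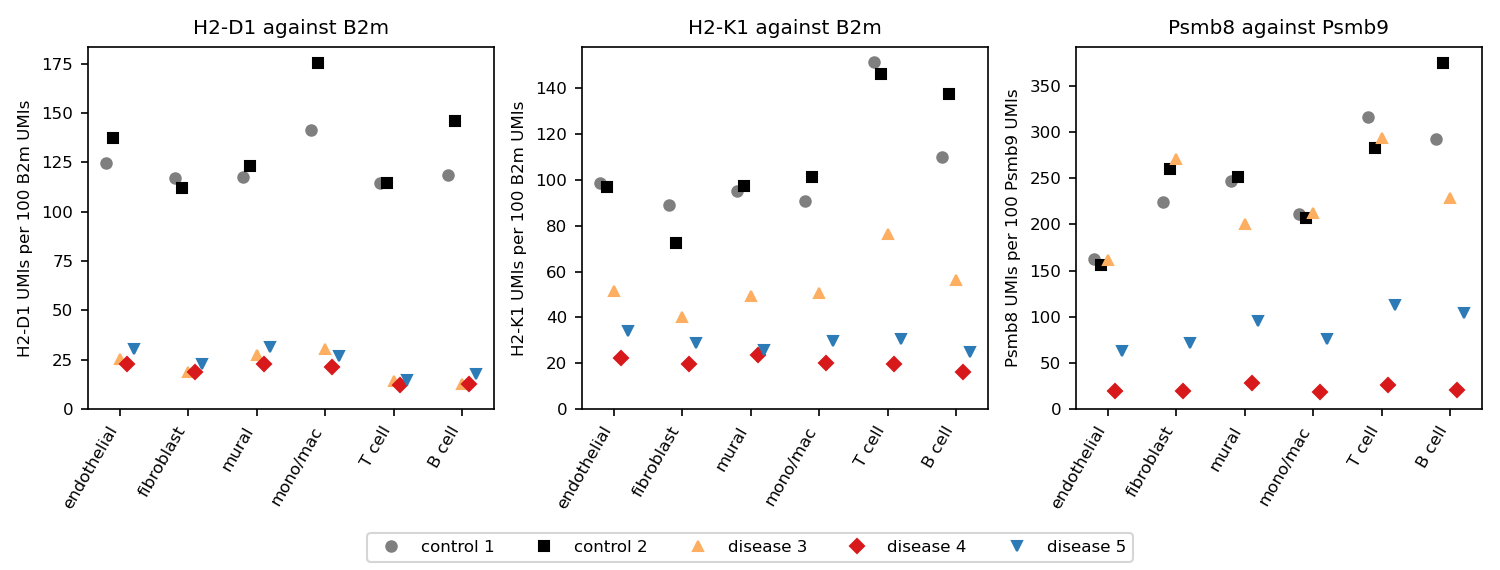
UMIs of H2-D1 per 100 UMIs of B2m, of H2-K1 per 100 UMIs of B2m, and of Psmb8 per 100 UMIs of Psmb9 (y axes, linear from 0) in 6 lineages, with 1 point per library. Within a library the ratios differ less between lineages than between the groups for H2-D1, and disease 4 lies between 19.1 and 28.6 in every lineage for Psmb8.

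The peptide transporter and its partner tapasin did not differ between groups by the test in any lineage. Tap1 was at 175 and 120 CPM among controls of endothelial-like cells and at 83.3, 142 and 98.6 among disease libraries (log2 fold change -0.45 ± 0.27, SE, edgeR's adjusted p = 0.370). Its fold changes ranged from -0.62 in B cell-like to 0.56 in fibroblast-like cells, with overlap in all 6 lineages. Tap2 was at 276 and 216 against 202, 410 and 259 CPM in endothelial-like cells. It was highest in disease 4 in all 6 lineages, with fold changes of 0.12 to 0.80 on the log2 scale and adjusted p-values of 0.360 or more. Tapbp varied little, from 278 to 378 CPM over the 5 libraries of endothelial-like cells, and its log2 fold changes were 0.09 to 0.59. In T cell-like cells all 3 disease libraries (203, 173 and 201 CPM) lay above both controls (170 and 147) for Tapbp, as for 15.2% of genes tested there (adjusted p = 0.682).

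Among the immunoproteasome subunits, Psmb9 and Psmb10 ran with B2m, and Psmb8 did not. In fibroblast-like cells Psmb9 was at 76.5 and 37.3 CPM among controls and at 42.1, 269 and 127 among disease libraries. This was a log2 fold change of 1.36 ± 0.80 (SE, edgeR's adjusted p = 0.333), with overlap between the groups. Among T cell-like cells all 3 disease libraries (220, 234 and 215 CPM) lay above both controls (192 and 79.1) for Psmb9, as for 15.2% of genes tested there (0.68 ± 0.39, SE, adjusted p = 0.491). In endothelial-like cells Psmb9 was at 408 and 325 against 310, 540 and 339 CPM. Psmb10 was at 119 and 76.1 against 99.9, 313 and 146 CPM in fibroblast-like cells (0.93 ± 0.53, SE, adjusted p = 0.317). Both genes were highest in disease 4 in 5 of 6 lineages.

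Psmb8 had another order of libraries, lowest in disease 4 in all 6 lineages. Among all genes tested, disease 4 was the lowest for 30.3% in endothelial-like, 28.8% in fibroblast-like, 27.7% in mural-like, 18.5% in T cell-like, 28.5% in monocyte/macrophage-like and 21.3% in B cell-like cells. In endothelial-like cells it was at 663 and 508 CPM among controls, 500 in disease 3, and 104 and 214 in disease 4 and 5. Disease 3 was thus next to the controls and the other disease libraries were far below them. The log2 fold change was -1.10 ± 0.61 (SE, edgeR's adjusted p = 0.337). Psmb8 passed the test in mural-like cells with no filter on low counts (-0.91, adjusted p = 0.00238) or without disease 3 (-1.57, 0.0102), and in B cell-like cells with no filter (-1.06, 0.00475). In T cell-like cells disease 3 was the highest of all libraries, with 608 and 224 CPM among controls and 646, 60.3 and 242 among disease libraries. Over all cells there were 198 and 176 Psmb8 UMIs per 100 Psmb9 UMIs among controls and 188, 19.98 and 72.0 in disease 3, 4 and 5. In disease 4 this ratio lay between 19.1 and 28.6 in the 6 lineages, whereas among controls it ranged from 156 to 374. The groups overlapped in this ratio over all cells (exact two-sided permutation p = 0.3, adjusted p = 0.336).

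Nlrc5, the class I transactivator, was counted at low levels. In fibroblast-like cells it was at 6.62 and 2.42 CPM among controls and at 2.10, 28.9 and 11.6 among disease libraries, from 22 to 417 UMIs per library. This was a log2 fold change of 1.60 ± 1.05 (SE, edgeR's adjusted p = 0.385), and disease 3 lay below both controls. The 8 T cell markers, summed over the same fibroblast-like cells, were at 61.6 and 2.52 CPM among controls and at 2.56, 254 and 73.8 in disease 3, 4 and 5, thus also highest in disease 4, with 3 of 8 at 0 in control 2 and 2 of 8 in disease 3. In endothelial-like, mural-like, monocyte/macrophage-like and B cell-like cells they were highest in disease 4 as well, at 124 to 169 CPM there. Their part in the levels of Nlrc5, B2m, Psmb9 and Psmb10 was not tested. In T cell-like cells Nlrc5 was at 66.1 and 43.6 against 50.8, 106 and 77.6 CPM (0.50 ± 0.38, SE, adjusted p = 0.601). Disease 4 was the highest library in 5 of 6 lineages. Nlrc5 did not pass the filter on low counts in mural-like and B cell-like cells, where 3 to 28 UMIs were counted per library.

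Counted over the set, 2 of 10 members fell in endothelial-like cells, 2 of 9 tested in mural-like cells, 1 of 10 in monocyte/macrophage-like cells, 1 of 10 in T cell-like cells and 1 of 9 in B cell-like cells, all of them heavy chains. The shares of all genes called lower were 11.7%, 7.91%, 6.59%, 5.02% and 8.49% in these lineages. No member passed in fibroblast-like cells by edgeR or DESeq2, where 1 of 10 had an unadjusted p under 0.05, beside 27.2% of all genes, and 11.7% of all genes were called lower. No member rose in any comparison, where the genes called higher made up 0.0309% over all cells, 0.361% in endothelial-like, 0.345% in fibroblast-like, 0.267% in mural-like, 0.0102% in T cell-like, 0.0695% in monocyte/macrophage-like and 0.152% in B cell-like cells. The median log2 fold change of the members was 0.06 in endothelial-like and 0.67 in fibroblast-like cells, beside 0.00 for all genes in both. In the plot of fold changes B2m, Tap2, Tapbp, Nlrc5, Psmb9 and Psmb10 are above 0 wherever they were tested, with no call, and Tap1 lies on both sides of 0.

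**Figure D4:**
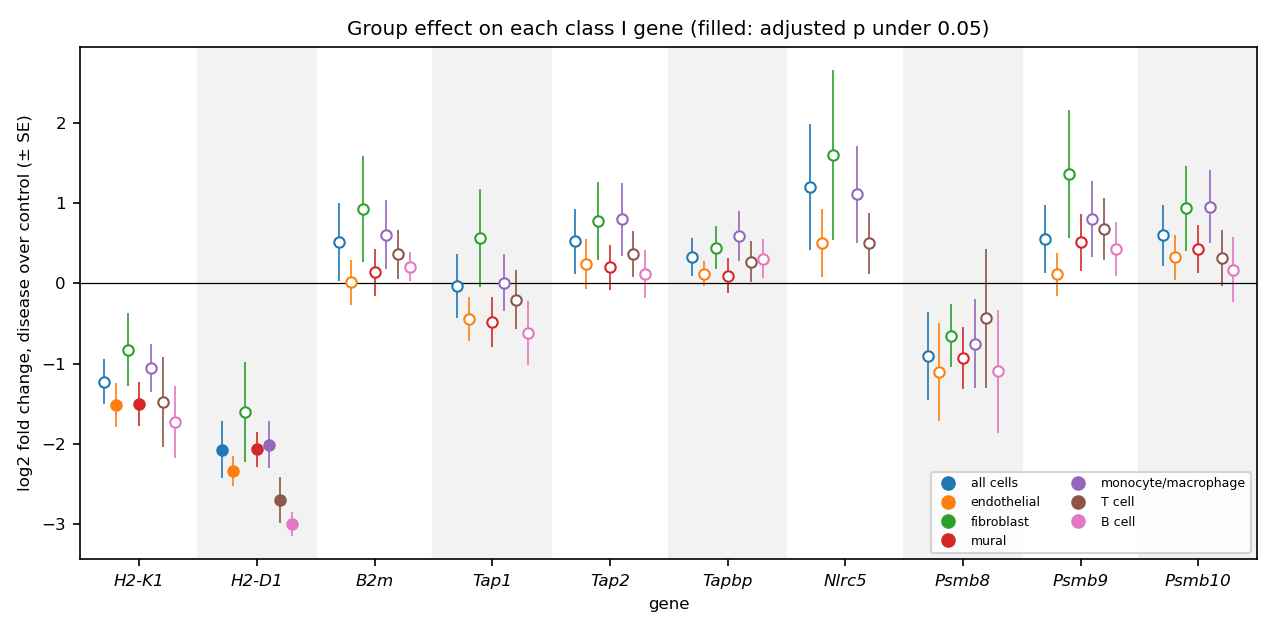
Log2 fold change of each class I gene, disease over control (y axis), with its SE as bars, over all cells and in each lineage (colours); filled points passed the edgeR test at an adjusted p under 0.05. The filled points belong to H2-D1 and H2-K1, and all of them lie below -1.

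Genes that work with the members were read from 4 lists. Among 8 peptide trimming and loading partners, Pdia3, a disulfide isomerase of the loading complex, fell over all cells and in all 6 lineages, as did 4.04% of the genes tested in all 6 within the lineages. In endothelial-like cells it was at 491 and 398 CPM among controls and at 121, 124 and 111 among disease libraries. The log2 fold change there was -1.91 ± 0.12 (SE, edgeR's adjusted p = 0.000697), and over the lineages it ran from -2.34 to -1.70. The call was lost over all cells without disease 5 (0.0682), in monocyte/macrophage-like cells without control 1 (0.0705) or disease 5 (0.0807), and in T cell-like cells without disease 5 (0.118). No other gene of this list passed in any lineage. Calr, the lectin chaperone that holds the heavy chain during loading, had log2 fold changes of -0.38 to 0.04, and Erap1, the peptidase that trims peptides to length, had 0.25 to 0.75.

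Of 9 standard proteasome genes none passed in 5 of the lineages by edgeR, where 1 to 4 had an unadjusted p under 0.05. The share of all genes under that value was 24.3% in endothelial-like, 27.2% in fibroblast-like, 15.3% in T cell-like, 18.2% in monocyte/macrophage-like and 22.1% in B cell-like cells, and 20.3% in mural-like cells. Psmb4, a structural subunit of the proteasome core, passed in mural-like cells (log2 fold change -1.52 ± 0.35, SE, edgeR's adjusted p = 0.0262, beside 7.91% of genes called lower). Its log2 fold changes over the 6 lineages were alike, from -1.76 to -1.31. That call was lost with DESeq2 (0.0521) and without control 1 (0.272), control 2 (0.0886) or disease 5 (0.163). Psmb4 was at 220 and 156 CPM in the mural-like controls and at 96.4, 29.5 and 64.2 among disease libraries. Its disease libraries lay below both controls in all 6 lineages, with disease 4 the lowest each time; per lineage, 19.9% to 26.5% of all genes had such a gap. Psmb5, the standard subunit that Psmb8 replaces, was lowest in disease 4 in all 6 lineages as well, at 162 and 148 against 188, 86.8 and 181 CPM in endothelial-like cells. Psmb6 and Psmb7, the subunits that Psmb9 and Psmb10 replace, had log2 fold changes of 0.13 to 0.58 and no call. Psmb6 lay above both controls in every disease library in all 6 lineages, Psmb7 and Psma3 in 5, and Psmb1 and Pomp in 4. Among all genes such a gap was found for 20% in endothelial-like, 20.9% in fibroblast-like, 16.1% in mural-like, 15.2% in T cell-like, 17.7% in monocyte/macrophage-like and 17.9% in B cell-like cells.

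Among 12 regulators of class I genes, 3 passed in at least 1 lineage, all lower, beside 13.4% of all genes called lower in at least 1 lineage (18.1% of those tested in all 6). Per lineage, 5.02% to 11.7% of all genes were called lower. Atf1, a factor that can bind the CREB/ATF half-site, fell in 5 of 6 lineages. Of the genes tested in all 6 lineages, 6.95% were called lower in 5 or more, 9.13% in 4 or more and 11.3% in 3 or more. It was at 40.5 and 38.6 CPM in the endothelial-like controls and at 14.4, 16.0 and 15.1 among disease libraries (-1.39 ± 0.10, SE, edgeR's adjusted p = 0.000963). Nfyc, a subunit of the factor NF-Y that binds the Y box, fell in 4 of 6 lineages. In fibroblast-like cells Nfyc was at 37.0 and 38.2 against 14.9, 13.6 and 14.2 CPM (-1.40 ± 0.10, SE, adjusted p = 0.00119). The endothelial-like and fibroblast-like calls of both genes held under all 13 alternatives. Their monocyte/macrophage-like calls were lost without control 1, control 2 or disease 5 (0.0987 to 0.129), and their B cell-like calls without control 1 or control 2 (0.0534 to 0.0972). The T cell-like Atf1 call was lost without control 1 (0.111), disease 3 (0.0575), disease 4 (0.0823) or disease 5 (0.202). With equal numbers of cells that call (0.0657) and the B cell-like Nfyc call (0.0526) were lost. Nfya and Nfyb, the other subunits of NF-Y, passed in none by edgeR, with log2 fold changes of -0.40 to 1.15 and 0.05 to 1.09. Socs1, a feedback inhibitor of interferon signalling, fell in T cell-like, B cell-like and fibroblast-like cells. In T cell-like cells Socs1 was at 96.1 and 104 CPM among controls and at 4.24, 6.31 and 7.29 among disease libraries (-3.95 ± 0.30, SE, adjusted p = 0.00435). That T cell-like call was lost without disease 5 (0.0859). The fibroblast-like call was lost without control 1 (0.0885), control 2 (0.0913) or disease 5 (0.0772), and the B cell-like call, from 2.52 to 49.7 CPM per library, without control 1 (0.100), control 2 (0.484), disease 3 (0.0782) or disease 4 (0.0887). With the GC trend removed both calls were lost (0.0582 and 0.124), and the B cell-like one also with DESeq2 (0.109) and with mixed cells kept (0.0527). Irf1, an interferon-induced factor, was lowest in disease 4 in all 6 lineages, with log2 fold changes of -0.25 to 0.12.

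Of 10 other class I heavy chains, 6 to 8 could be tested per lineage, and H2-Q4 alone passed. It fell in endothelial-like, mural-like, T cell-like and B cell-like cells, where 11.7%, 7.91%, 5.02% and 8.49% of all genes were called lower. A single call among 6 to 8 genes is too few to compare with these shares. In endothelial-like cells H2-Q4 was at 874 and 661 CPM among controls and at 219, 388 and 234 among disease libraries (-1.45 ± 0.28, SE, edgeR's adjusted p = 0.0268). All 4 of its calls were lost with the GC trend removed (adjusted p = 0.132, 0.137, 0.189 and 0.0943) and without control 1 (0.137, 0.269, 0.108 and 0.0879). Leaving out control 2 also ended the endothelial-like (0.0874) and B cell-like calls (0.110). Leaving out disease 3 ended the endothelial-like (0.0648), mural-like (0.0568) and T cell-like calls (0.102), disease 5 the same ones (0.125, 0.108 and 0.219), and disease 4 the T cell-like call (0.0816). H2-T23, which presents leader peptides of other class I chains to NK cells, had log2 fold changes of -0.19 to 0.88, and H2-M3, which presents formylated peptides, 0.20 to 0.66. Heavy chain genes resemble each other, and reads from shared stretches cannot be placed in 1 gene. Windows of 90 bases were taken from the first 1000 bases of each member's protein-coding transcripts. Of these, 7 of 1312 of H2-D1 also occurred in H2-Q5 and 2 of 2032 of H2-K1 in other heavy chains. Bases further along these transcripts were not searched. How far counting against 1 reference sequence bears on the counts of heavy chains and of Psmb8, another gene of the MHC region, was not tested, since the strain is not given. Tap1 and Psmb9 start within 212 shared bases on opposite strands, and B2m, Tap2, Tapbp, Nlrc5, Psmb8 and Psmb10 each overlap a gene on the other strand (Patl2 for B2m), so their reads could be split where counting ignored strand.

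Whether the group effect differed between lineages was tested for the 6 pairs among endothelial-like, fibroblast-like, T cell-like and monocyte/macrophage-like cells. No member passed in any pair by edgeR. Of all genes, 0.134% passed between fibroblast-like and endothelial-like cells. Monocyte/macrophage-like cells differed for 0.0171% of genes from T cell-like, 0.0347% from fibroblast-like and 0.0145% from endothelial-like cells, and T cell-like cells for 0.0141% from fibroblast-like and 0.015% from endothelial-like cells. Between fibroblast-like and endothelial-like cells all 10 members had a higher log2 fold change in fibroblast-like cells, by 0.44 to 1.17, with 8 at an unadjusted p under 0.05, beside 16.5% of all genes, and adjusted p-values of 0.199 to 0.345. With no filter on low counts 9 of the 10 passed in that pair, beside 1.61% of all genes, and without disease 3 1 did, beside 0.305%. In the other 5 pairs no member had an unadjusted p under 0.05, beside 4.27% of all genes for monocyte/macrophage-like minus T cell-like, 5.78% for monocyte/macrophage-like minus fibroblast-like, 5.6% for monocyte/macrophage-like minus endothelial-like, 5.21% for T cell-like minus fibroblast-like and 5.44% for T cell-like minus endothelial-like cells. This held also where the 10 differences had 1 sign: -1.13 to -0.32 for T cell-like minus fibroblast-like cells, and 0.19 to 0.51 for monocyte/macrophage-like minus endothelial-like cells.

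Lineages themselves differed in class I levels, tested with libraries as blocks and each lineage set against the mean of the other 5 (edgeR, adjusted over 13067 genes). T cell-like cells were higher for 8 of 10 members, beside 36.3% of all genes, and had the highest means for H2-K1, B2m, Tap1, Tap2, Psmb8 and Nlrc5. For Tap2 and Psmb8 they lay above endothelial-like cells in only 3 of 5 libraries. Their calls for H2-D1 and Psmb9 were lost without TMM factors (adjusted p = 0.569 and 0.206), the first also without control 1 (0.134) or control 2 (0.175), and Tapbp was then called lower (-0.28, 0.0223). Nlrc5 was 2.38 ± 0.18 higher there on the log2 scale (SE, adjusted p = 3.7e-13), and its mean of 86.8 ± 44.0 CPM (SD, n = 5) lay above the 34.8 ± 25.6 of monocyte/macrophage-like cells in 5 of 5 libraries. H2-K1 was 1.32 ± 0.16 higher in T cell-like cells (SE, adjusted p = 1.6e-08) and B2m 0.93 ± 0.12 higher (SE, adjusted p = 2.9e-08). These means use 1 scaling over all lineages and libraries, unlike the levels within a lineage given above.

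Endothelial-like cells were higher for 7 of 10 members, beside 36.1% of all genes, and had the highest means for Psmb9, Psmb10 and Tapbp, though for Psmb10 they lay above monocyte/macrophage-like cells in only 3 of 5 libraries. Without TMM factors H2-K1 (adjusted p = 0.0172), B2m (0.000871) and Nlrc5 (0.00362) were called higher there too. B2m was also called with no filter (0.0183) or without disease 4 (0.0218), and Nlrc5 with no filter (0.0253) or without disease 5 (0.0444). Psmb9 was 1.29 ± 0.15 higher there on the log2 scale (SE, edgeR's adjusted p = 9.6e-09), at a mean of 330 ± 92.4 CPM (SD, n = 5), and Psmb10 was 0.92 ± 0.11 higher (SE, adjusted p = 1.0e-08). For Psmb9 the next lineage, monocyte/macrophage-like cells (270 ± 144, SD, n = 5), was below it in 4 of 5 libraries. Monocyte/macrophage-like cells were higher for 8 of 10 members, beside 32.1% of all genes, of which the Tapbp call was lost without TMM factors (0.203) or disease 4 (0.0945). Tap2 was called lower there without TMM factors (-0.30, 0.00839) or disease 4 (-0.24, 0.0163). H2-K1 was called higher with no filter on low counts (0.00625) and without control 2 (0.0464). H2-D1 was highest there, 0.83 ± 0.14 above the others (SE, adjusted p = 6.4e-06), and lay above T cell-like cells in 5 of 5 libraries. T cell-like and endothelial-like cells, next in order for H2-D1, changed places between libraries, with T cell-like cells above in 2 of 5. For H2-K1 the lineages behind T cell-like cells did not keep an order either, B cell-like cells being above monocyte/macrophage-like cells in 2 of 5 libraries.

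Mural-like cells were lower than the other lineages for all 10 members, by 0.36 (Psmb10) to 1.46 (Nlrc5) on the log2 scale, beside 26.3% of all genes. The Tap2, Psmb8 and Psmb9 calls were lost without TMM factors (edgeR's adjusted p = 0.948, 0.155 and 0.134), and Psmb10 then turned to 0.065. The Psmb10 call was also lost without control 1 (0.0815), control 2 (0.0951), disease 4 (0.0747) or disease 5 (0.118). Among fibroblast-like cells the calls of H2-D1 and B2m were lost without control 2 (0.0795 and 0.0526). Fibroblast-like cells were lower for 9 of 10 members, beside 32.5% of all genes, with Nlrc5 at -1.68 ± 0.20 and Psmb8 at -1.25 ± 0.16 (SE, adjusted p = 7.4e-09 and 3.0e-08). Tapbp was the exception, 0.25 ± 0.10 higher (SE, adjusted p = 0.0276, beside 37.6% of all genes), a call lost without disease 4 (0.206) or disease 5 (0.0743). B cell-like cells were lower for Tap2, Psmb9 and Psmb10 alone, beside 28.3% of all genes, and the Tap2 call was lost without any 1 of the disease libraries (0.0512, 0.141 and 0.0864). Without TMM factors H2-D1 (0.0289), Tap1 (0.0205), Tapbp (8.6e-05) and Psmb8 (0.00235) were called lower in B cell-like cells too. Without disease 4, H2-K1 (0.48, adjusted p = 0.0095) and B2m (0.35, 0.0102) were called higher there. Psmb9 was -0.73 ± 0.22 there (SE, adjusted p = 0.00629).

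**Figure D5:**
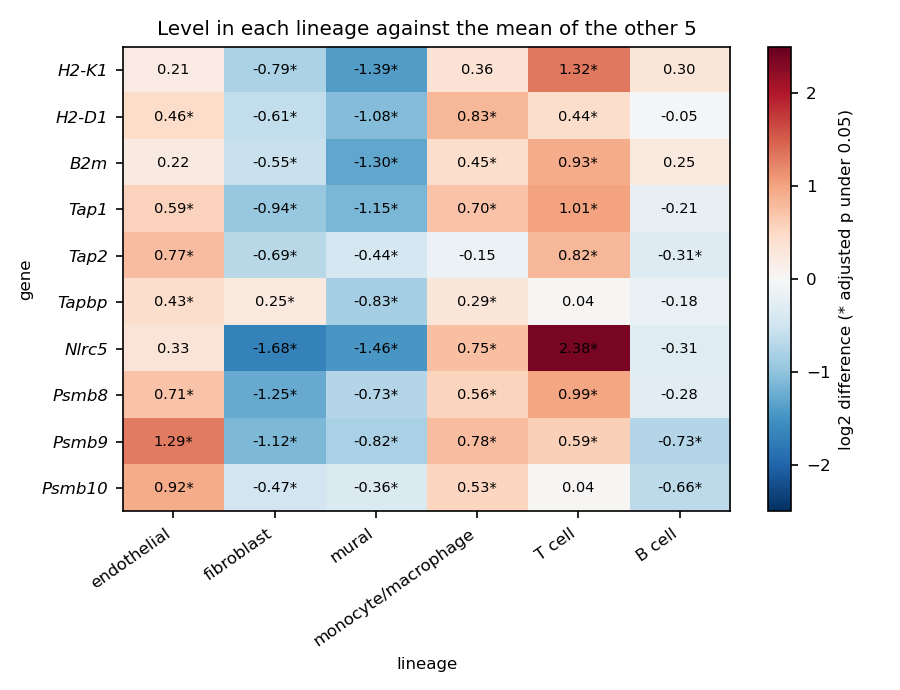
Log2 difference (number and colour) of each class I gene (rows) in each lineage (columns) from the mean of the other 5 lineages, over 5 libraries; stars mark an edgeR adjusted p under 0.05. The highest value is 2.38 for Nlrc5 in T cell-like cells, and the mural-like column is below 0 for all 10 genes.

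Across the 30 sums of 5 libraries and 6 lineages, each centred within its lineage on a log2 scale, the members fell into like-varying groups. These correlations describe points that share libraries, and they carry no test. B2m and Psmb9 had a Pearson r of 0.94, Tap2 and Nlrc5 0.95, and H2-K1 and H2-D1 0.87. Psmb8 had an r of 0.75 with H2-K1 but -0.38 with Psmb9 and -0.63 with Nlrc5. B2m had an r of -0.05 with H2-K1 and -0.06 with H2-D1.

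Among 5873 other genes of sufficient level, those most like H2-D1 were Serp1, an endoplasmic reticulum protein, and Ppm1g, a protein phosphatase (r = 0.96 for both). Those most like H2-K1 were Actr3, a subunit of the actin-branching complex (0.93), and Sod2, the mitochondrial superoxide dismutase (0.92). For B2m they were the interferon-inducible GTPase genes Ifi47 and Gbp3 (0.93 for both). Gbp3 was also among the first pair for Tap2 (0.94), Psmb9 (0.93) and Psmb10 (0.93), beside Phf11b for Psmb9 (0.95) and Psme1, a proteasome activator subunit, for Psmb10 (0.93). Psmb8 was most like Pebp1, a kinase inhibitor (0.94). Nlrc5 was most like Cst7 and Cd27, both known from T and NK cells (0.93 for both). For Tap1 they were the class I genes H2-T23 (0.84) and H2-Q7 (0.82), and for Tapbp Psme1 and Srgn (0.84 for both).

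Another 5 lineages had too few cells for a test and are given as pooled values. In 262 neutrophil-like cells H2-D1 was at 4260 and 2903 CPM among controls and at 1079, 1088 and 821 in disease 3, 4 and 5, without TMM factors. In 87 NK-like cells it was at 3926 and 4464 against 843, 491 and 624, and in 136 glial-like cells at 5377 and 2274 against 644, 1437 and 1025. The disease libraries were the lower ones in all 3. How many of all genes show such a gap in these cells was not counted. NK-like cells numbered 8 to 37 per library, glial-like cells 22 to 42 and neutrophil-like cells 31 to 102. In neutrophil-like cells monocyte/macrophage markers were at 585 and 420 CPM among controls but at 8523, 4956 and 8457 in disease 3, 4 and 5, so the gated cells differed in make-up between the groups. In 62 dendritic-like cells (13 and 1 in the controls, 7, 22 and 19 in disease 3, 4 and 5), the professional presenters to T cells, H2-D1 was at 2476 and 2666 against 563, 427 and 467 CPM, the value of control 2 being that of 1 cell. Their pooled Psmb9 level was 935 CPM, from 1024 UMIs. The 10 mesothelial-like cells held 664 H2-D1 UMIs in all.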

How the data were processed

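Cells of mouse heart were sequenced with the 10x Genomics 5′ chemistry in 2 control and 3 disease libraries. Deposited values are raw UMI counts per gene and barcode from Cell Ranger 3.1.0, per the file headers, and the submitters' processing notes also name Seurat 3 and the builds mm10 and GRCh38. Read length, use of strand and any doublet removal before deposit are not given in the sources used here. Totals per library ran from 24991704 to 55053988 UMIs.

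Barcodes with at least 500 UMIs, 200 genes and at most 10% mitochondrial UMIs were kept. A cell took the lineage with most marker UMIs if at least 3 of its markers were seen and they made up at least 60% of all lineage marker UMIs. This share removed 1321 cells with mixed markers, and 1159 cells lay within 5 points of it. Doublets were not identified among the removed or the kept cells, since no doublet caller was run. The share was set after marker counts were seen. Lineages were named from these markers alone, which is what "like" marks.

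Counts were summed per library and lineage and fitted in R 4.3.3 by edgeR 4.0.16 (filterByExpr, TMM, quasi-likelihood F test, Benjamini-Hochberg over all genes, threshold 0.05, all 5 libraries, no covariate). Lineages were compared in 1 fit with libraries as blocks, and pairs of lineages with a group by lineage term. Alternatives were DESeq2 1.42.0, no TMM, no filter, leaving out each library, a 25% mitochondrial limit, 4 markers, keeping mixed cells, equal cell numbers and removing a GC trend over the first 300 transcript bases. Ratios were compared with exact permutation tests. The edgeR script was tested on simulated data. Members and most list genes are named, and for each member the 2 other genes with the highest correlation (mean of at least 20 CPM, no sex-linked or mitochondrial genes). The members and lists were chosen with earlier results of these data known. Results of some genes that this rule would name are not reported here.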

Additional observations from a re-analysis of the deposited data

How the results depend on the processing

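No paired analysis was possible because control and disease libraries share no replicate number in the labels. Among the log2 differences between groups of the members and of the list genes called, 1083 values under an alternative kept direction and side of the threshold, 78 lost a call, 13 gained one and 32 turned sign, and the differences that turned were at most 0.62 in size. The cause of each change below was not tested. Depth limits Nlrc5, with 3 to 28 UMIs per library in mural-like and B cell-like cells, and 66 to 134 mural-like cells per library limit that lineage.

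Over all cells, DESeq2 called 1656 genes and 2 members, adding H2-K1, and 672 genes passed with the GC trend removed, against 1041 in the report. With the GC trend removed, 1 member passed in endothelial-like cells, and 274 genes each in T cell-like and B cell-like cells. DESeq2 called 276 genes in mural-like cells, and 2 members each in monocyte/macrophage-like and B cell-like cells. Without the filter on low counts, 935 genes and 3 members passed in mural-like cells, adding Psmb8, 1225 genes and 2 members in monocyte/macrophage-like cells, 956 and 2 in T cell-like cells, and 976 and 3 in B cell-like cells. Equal numbers of cells gave 235 genes in T cell-like and 253 in B cell-like cells, and 2 members passed in B cell-like cells without TMM factors.

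For the effects compared between lineages, no filter gave 34 genes for monocyte/macrophage-like against T cell-like cells, 167 against fibroblast-like and 151 against endothelial-like cells. It gave 36 for T cell-like against fibroblast-like cells, 42 against endothelial-like cells, and 357 with 9 members for fibroblast-like against endothelial-like cells. Without TMM factors these counts were 1 for monocyte/macrophage-like against fibroblast-like cells, 0 against endothelial-like cells, 1 for each T cell-like pair with those lineages, and 12 for fibroblast-like against endothelial-like cells. That 0 is from edgeR, as are the other counts here.

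Some differences turned sign. With the GC trend removed, B2m was -0.082 in endothelial-like, Tap1 -0.013 in monocyte/macrophage-like and Psmb10 -0.019 in B cell-like cells. Tap1 was -0.11 in monocyte/macrophage-like cells without TMM factors and -0.0084 with equal cell numbers. Tapbp was -0.019 in mural-like cells at the 25% mitochondrial limit and -0.0092 with mixed cells kept. Between lineages without TMM factors, Psmb10 was 0.065 in mural-like and -0.28 in T cell-like cells, Tapbp -0.28 in T cell-like cells (adjusted p = 0.0223, a call in the other direction), H2-K1 -0.11 and B2m -0.16 in B cell-like cells.

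Leaving out 1 library at a time gave 121 to 1256 genes called over all cells, 764 to 1547 in endothelial-like, 712 to 1784 in fibroblast-like, 230 to 691 in mural-like, 187 to 1013 in monocyte/macrophage-like, 0 to 396 in T cell-like and 50 to 495 in B cell-like cells. The 0 in T cell-like cells was without disease 5 in edgeR, where 963 genes had an unadjusted p under 0.05. Counts dropped by more than 1.5 times without disease 5 in all 6 lineages, without control 2 in all but T cell-like cells, without control 1 in all but endothelial-like cells, and without disease 4 in T cell-like cells. Members called were 0 to 1 over all cells, in fibroblast-like and in monocyte/macrophage-like cells, 1 to 2 in endothelial-like and B cell-like cells, 1 to 3 in mural-like cells, with Psmb8 added without disease 3, and 0 to 2 in T cell-like cells. Effects compared between lineages gave 0 to 12 genes for monocyte/macrophage-like against T cell-like and against fibroblast-like cells, 0 to 15 against endothelial-like cells, 0 to 42 for T cell-like against fibroblast-like cells, 4 to 167 against endothelial-like cells, and 2 to 43 genes with 0 to 1 members for fibroblast-like against endothelial-like cells.

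Ranges that crossed 0 on leaving out 1 library were, over all cells, -0.022 to 0.87 for B2m and -0.33 to 0.32 for Tap1. In endothelial-like cells they were -0.25 to 0.25 for B2m, -0.087 to 0.44 for Tap2 and -0.17 to 0.28 for Psmb9. In mural-like cells they were -0.24 to 0.47 for B2m, -0.031 to 0.59 for Tap2 and -0.12 to 0.44 for Tapbp. In monocyte/macrophage-like cells Tap1 ran from -0.32 to 0.45. In T cell-like cells Tap1 ran from -0.56 to 0.34, Psmb8 from -1.46 to 0.40 and Psmb10 from -0.037 to 0.89. In B cell-like cells B2m ran from -0.0044 to 0.51, Tap1 from -1.16 to 0.14, Tap2 from -0.17 to 0.47, Psmb9 from -0.059 to 1.07 and Psmb10 from -0.33 to 0.85. Between lineages, T cell-like cells gave -0.12 to 0.076 for Tapbp and -0.11 to 0.10 for Psmb10, and B cell-like cells -0.31 to 0.12 for H2-D1.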
